A study of Homo sapiens with 4 samples.

Results

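GATA3 binding was examined across the HOXA, HOXB, HOXC and HOXD clusters of H1 hESCs, an established human embryonic stem cell line, after 6 h of BMP4 at 50 ng/ml in mTeSR1 medium. Both GATA3 ChIP-seq replicates and both of their input chromatin samples carried this treatment, and a peak list of each ChIP replicate was analysed. No untreated GATA3 ChIP was analysed here, so nothing below compares BMP4 with its absence. Of the 39 HOX genes, 38 are described. Each cluster was taken with 100 kb on either side of its outermost genes, and these windows held 20 of 18456 positions in replicate 1 and 17 of 12782 in replicate 2. A region was counted as shared where a position of replicate 1 and a position of replicate 2 lay within 100 bp of each other. The windows held 11 of the 9145 shared regions on the 24 chromosomes.

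HOX genes encode homeodomain transcription factors that give cells their position along the head-to-tail axis. Paralogue groups 1 to 13 are laid out in order along each cluster, and genes of the low-numbered, anterior groups are switched on earlier and further forward in the embryo than those of the high-numbered, posterior groups. In pluripotent cells the clusters are largely held silent by Polycomb proteins, and the gene-poor DNA beside them, best known for HOXD, carries distant enhancers. GATA3 is a zinc finger factor that binds GATA sequences and is known for its part in T cells and in the trophectoderm. Genes of groups 1 to 4 are called anterior here, groups 5 to 8 central and groups 9 to 13 posterior.

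Between the outermost genes, a total of 523 kb, there were 3 shared GATA3 regions, next to HOXA2, HOXB5 and HOXD11. The flanks, a total of 800 kb, held the other 8. The HOXC cluster had none between its outermost genes, but a shared region lay 1.69 kb upstream of HOXC13. The sequences of these 4 regions are shown because they are the shared regions closest to HOX genes. They are hg38 reference sequence on the plus strand, and capitals mark a GATA word, meaning the letters GATA with A or T before and A or G after them, read on either strand. At HOXA2 the stretch is kept to 30 bases around the word because the region lies in a UTR of HOXA3. This stretch lies to the side of both replicate positions, 27106234 and 27106240. The 200 bp around the replicate 2 position alone held 0 GATA words.

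HOXA2, chr7:27106127-27106156, plus strand: agtaagcagccCTATCTtaaatccaggagt
HOXB5, chr17:48589449-48589568, plus strand: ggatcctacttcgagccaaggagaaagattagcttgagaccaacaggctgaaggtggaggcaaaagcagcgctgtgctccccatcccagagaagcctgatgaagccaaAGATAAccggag
HOXC13, chr12:53937078-53937197, plus strand: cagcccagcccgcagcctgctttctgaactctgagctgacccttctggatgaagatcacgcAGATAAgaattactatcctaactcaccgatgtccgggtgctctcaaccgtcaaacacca
HOXD11, chr2:176105170-176105289, plus strand: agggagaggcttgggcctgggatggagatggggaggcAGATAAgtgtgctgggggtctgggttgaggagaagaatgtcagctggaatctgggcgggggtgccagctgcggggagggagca

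Of the flank regions, 3 held more than 1 GATA word, and their central 120 bases show all of these words. The first region is far upstream of HOXC13, and its words lay 14.5, 31.5 and 54.5 bp from the centre. The other regions lie in the first intron of MTX2, beyond the anterior end of HOXD.

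HOXC13 far upstream, chr12:53867648-53867767, plus strand: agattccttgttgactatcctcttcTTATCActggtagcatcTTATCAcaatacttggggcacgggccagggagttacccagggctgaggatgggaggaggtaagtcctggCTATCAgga
MTX2 intron, first region, chr2:176281885-176282004, plus strand: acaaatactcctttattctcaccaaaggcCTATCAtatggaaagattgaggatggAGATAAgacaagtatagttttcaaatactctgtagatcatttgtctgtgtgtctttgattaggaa
MTX2 intron, second region, chr2:176284767-176284886, plus strand: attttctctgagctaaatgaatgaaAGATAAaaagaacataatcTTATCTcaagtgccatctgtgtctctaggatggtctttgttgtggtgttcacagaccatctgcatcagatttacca

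**Figure D1:**
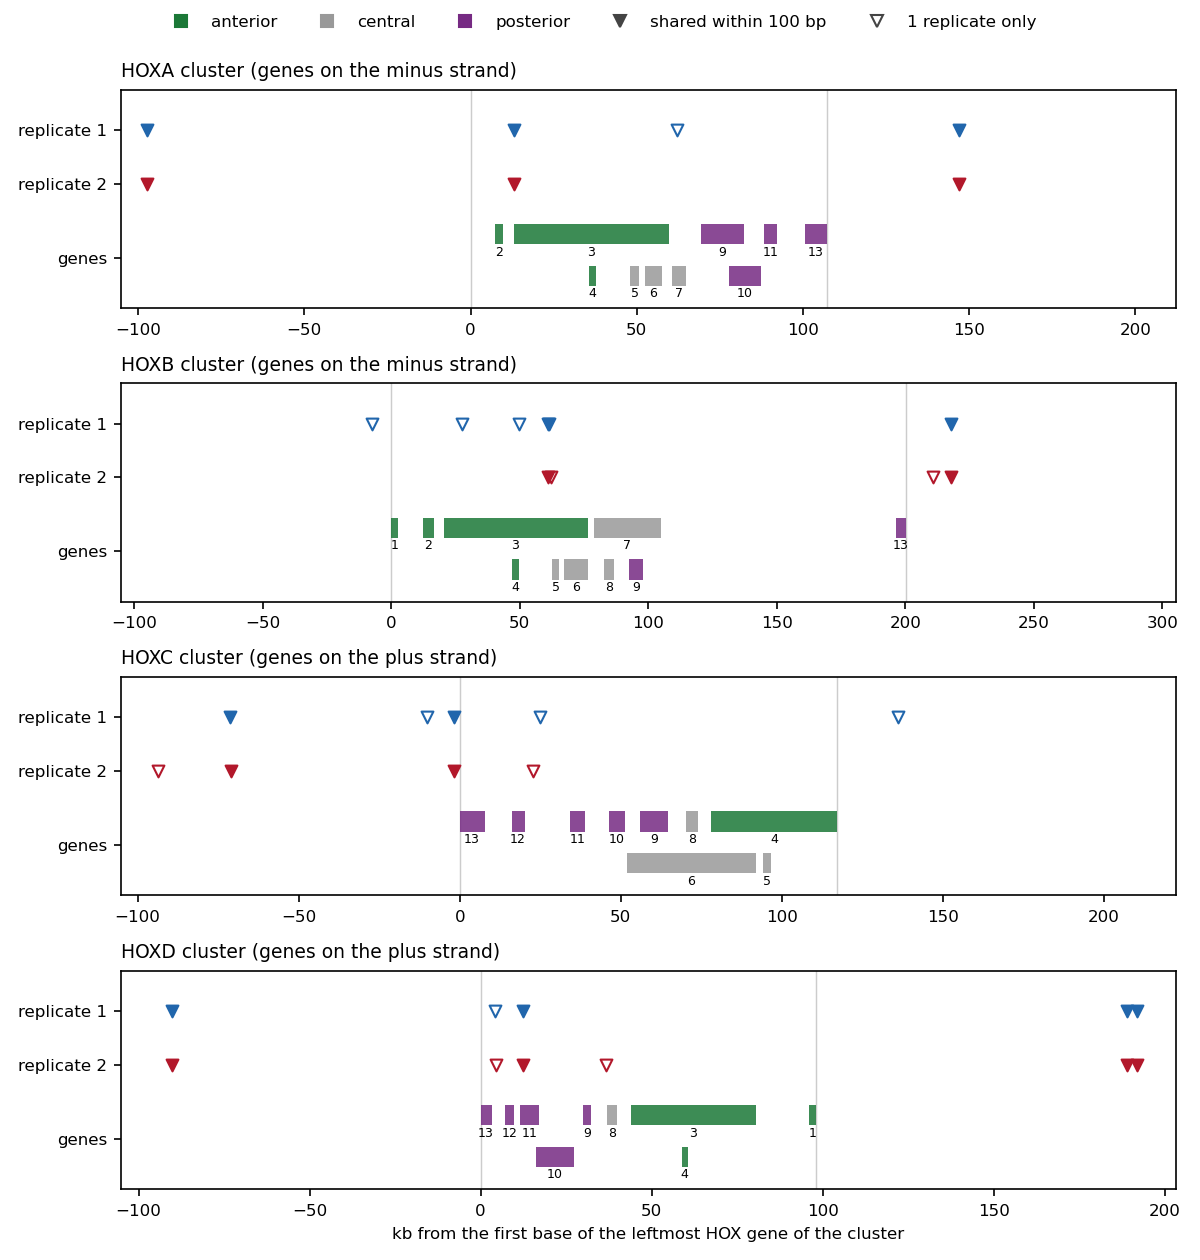
GATA3 positions in the 4 HOX windows, with kb from the first base of the leftmost HOX gene on the horizontal axis, grey lines at the outermost genes and paralogue numbers under the genes. Filled triangles are positions shared within 100 bp and open ones were found in 1 replicate only; 3 shared regions lie between the grey lines and 8 outside them, and at HOXB5 an unshared position of each replicate sits beside or behind a shared one.

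In the HOXA cluster (chromosome 7, 27092993 to 27200091, genes on the minus strand) replicate 1 had positions at 27106234 and 27155103 and replicate 2 had only 27106240. The positions at 27106234 and 27106240 were 6 bp apart, the closest agreement in any HOX window. They lay 3.55 kb upstream of the transcription start site (TSS, taken as the 5′ end of the annotated gene) of HOXA2, which patterns the hindbrain and second pharyngeal arch, and in a UTR exon of a non-canonical HOXA3 transcript. HOXA3, whose 5′ end is 46.3 kb away, is involved in the development of pharyngeal organs. The position of replicate 1 at 27155103 was in exon 2 of HOXA7, a central gene, and 48863 bp from any position of replicate 2. No position of either replicate lay within 10 kb of the TSS of HOXA4, HOXA5, HOXA9, HOXA10, HOXA11 or HOXA13. The posterior genes HOXA9 to HOXA13, which act in the limb, kidney and genital tract, were between 39.6 and 64.5 kb from their nearest shared region.

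The HOXA flanks each held 1 shared region and no unshared position. On the anterior side, 26995814 and 26995825 lay 0.581 kb upstream of the TSS of SKAP2, an adaptor protein gene. On the posterior side, 27239714 in replicate 1 and 27239635 in replicate 2 lay 3.03 kb upstream of EVX1, a homeobox gene of the primitive streak that neighbours HOXA13. The TSS of HOXA13 itself was 39.6 kb from that region.

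The HOXB cluster (chromosome 17, 48528526 to 48728750, minus strand) had 4 positions in replicate 1 and 2 in replicate 2 between its outermost genes. They were 48556006, 48578428, 48589473 and 48589789 in replicate 1 and 48589543 and 48590685 in replicate 2. Of these, 48589473 and 48589543 were shared at 70 bp. This region was 4.27 kb downstream of the TSS of HOXB5, beyond the 3′ end of that gene, and in an intron of both HOXB3 and the antisense RNA HOXB-AS3. HOXB3 has several starts, and its canonical start lay 0.733 kb upstream of the region, whereas the 5′ end of the annotated gene was 15.4 kb away. The unshared positions beside it, 48589789 and 48590685, were 246 and 896 bp from the nearest position of the other replicate. Of the 6 positions in the cluster, 4 therefore fell in the stretch around HOXB5 and 2 were shared.

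HOXB4, a gene known for its part in blood stem cells, had the position closest to any HOX TSS. Replicate 1 listed 48578428, 0.0780 kb upstream of it, and the nearest position of replicate 2 was 11.2 kb from the TSS. The position 48556006 of replicate 1, in intron 2 of HOXB3, was 33537 bp from any position of replicate 2. Neither was therefore seen in both replicates. HOXB1 and HOXB2, active in the hindbrain, had no position of either replicate within 10 kb, although replicate 1 listed 48520900 at 10.1 kb downstream of the HOXB1 TSS. HOXB6, HOXB7, HOXB8 and HOXB9 had none within 10 kb, and their nearest shared region was between 15.5 and 44.1 kb away. HOXB13, a prostate and tail-end gene separated from the rest of its cluster, had a shared region 17.9 kb upstream of its TSS, at 48746624 and 48746647. Replicate 2 alone listed 48739249, 10.5 kb upstream of the same gene.

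In the HOXC cluster (chromosome 12, 53938831 to 54056030, plus strand) each replicate had 1 position between the outermost genes, 53963675 in replicate 1 and 53961636 in replicate 2. They were 2039 bp apart and not shared. The position of replicate 1 was in exon 7 of HOTAIR, a long noncoding RNA transcribed antisense between HOXC11 and HOXC12, and that of replicate 2 was 6.73 kb downstream of the HOXC12 TSS. The region upstream of HOXC13, a gene needed for hair and nails, had 53937175 in replicate 1 and 53937099 in replicate 2 and overlapped the antisense RNA HOXC13-AS. Replicate 1 alone listed 53928618, 10.2 kb upstream of HOXC13. The remaining HOXC genes lay farther than 10 kb from a shared region, at 17.8 kb for HOXC12, 36.0 kb for HOXC11, 47.9 kb for HOXC10, 57.8 kb for HOXC9 and 71.8 kb for HOXC8. HOXC6, HOXC5 and HOXC4, whose annotated starts are not in the order of their coding parts, were at 53.5, 95.9 and 79.8 kb.

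The posterior flank of HOXC held the other shared region, 71.1 kb upstream of HOXC13 in an intron of an unnamed long noncoding RNA, with 53867673 in replicate 1 and 53867741 in replicate 2. Replicate 2 alone listed 53845239 in the same RNA gene. On the anterior side the only position was 54074523 of replicate 1, 112887 bp from any position of replicate 2.

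The HOXD cluster (chromosome 2, 176092721 to 176190907, plus strand) had its only shared region between the outermost genes at the posterior end. Between the outermost genes replicate 1 listed 176096950 and 176105202, and replicate 2 listed 176097179, 176105256 and 176129386. The pair 176105202 and 176105256, 54 bp apart, formed a shared region 1.01 kb downstream of the 5′ end of HOXD11, in an intron of its longer transcript and 2.05 kb upstream of its canonical start. HOXD11 acts with HOXA11 in the forearm and kidney. The region was also within 10 kb of the 5′ ends of HOXD10, at 3.56 kb, and HOXD12, at 5.43 kb, both limb genes. HOXD13, the gene of the digits, was 12.5 kb from it.

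The pair 176096950 and 176097179, 229 bp apart, fell outside the 100 bp limit. It lay 2.85 and 2.62 kb upstream of HOXD12. No pair of positions of different replicates in the HOX windows was between 79 and 229 bp apart. At HOXD8, a central gene, replicate 2 listed 176129386, 0.308 kb upstream of the TSS, whereas the nearest position of replicate 1 was 24.5 kb from that TSS. The nearest shared region of HOXD1, HOXD3, HOXD4 and HOXD9 was more than 10 kb away, at 83.4, 31.4, 46.3 and 17.5 kb.

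The HOXD flanks held 3 shared regions and no unshared position. On the posterior side 176002444 and 176002397 lay 0.418 kb downstream of the TSS of LNPK, which encodes an endoplasmic reticulum protein. On the anterior side, 93.3 and 96.2 kb from HOXD1, the regions at 176281907 and 176281981 and at 176284847 and 176284806 were both in the first intron of MTX2, a mitochondrial membrane gene at the edge of the enhancer-rich DNA of that side.

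Set side by side, the windows held 3 shared regions for HOXA, 2 for HOXB, 2 for HOXC and 4 for HOXD. Per Mb of window the values were 9.77 (95% exact Poisson interval 2.01 to 28.5), 5.0 (0.605 to 18.1), 6.31 (0.764 to 22.8) and 13.4 (3.65 to 34.3). These intervals overlap throughout, and the clusters cannot be ranked by shared regions at these counts. Over all windows the density was 8.32 per Mb (4.15 to 14.9), against 3.11 per Mb of sequenced bases on the 24 chromosomes. Between the outermost genes it was 5.74 per Mb (1.18 to 16.8), an interval that includes the chromosome value, and in the flanks it was 10.0 per Mb (4.32 to 19.7), an interval that does not. The flank value depends on the 100 kb limit, since the regions at SKAP2, LNPK and MTX2 lay near the outer edges of their windows. Those at LNPK and MTX2 were 90.3, 93.3 and 96.2 kb from the nearest HOX TSS. That at SKAP2 was 107 kb from the TSS of HOXA2. Windows set by the 38 genes described left it out and held 10 shared regions. With flanks of 50 kb the windows held 6 shared regions, with flanks of 200 kb they held 13 and with no flank 3. No flank interval was computed at 50 or 200 kb, so the comparison with the chromosome value holds for 100 kb only. The flank interval also counts the 2 regions in the MTX2 intron as separate events. The values between the genes and in the flanks overlap in their intervals. The intervals cover counting error only, and the difference was not tested because regions are not replicates.

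The share of positions found in both replicates was lower between the genes than beside them, within wide intervals. In replicate 1, 3 of 9 positions between the outermost genes were shared (33.3%, 95% Wilson interval 12.1 to 64.6) and 8 of 11 in the flanks (72.7%, 43.4 to 90.3). In replicate 2 the counts were 3 of 7 (42.9%, 15.8 to 75.0) and 8 of 10 (80.0%, 49.0 to 94.3). The intervals overlap in both replicates. Over the windows as a whole 55.0% and 64.7% of positions were shared, close to the 49.6% and 71.5% of the 24 chromosomes. By cluster the share was lowest in replicate 1 for HOXB, at 2 of 6 positions, and in replicate 2 for HOXB and HOXC, at 2 of 4 each, and highest in replicate 1 for HOXD, at 4 of 5, and in replicate 2 for HOXA, at 3 of 3. Shared HOX positions were a median of 54 bp apart, and 6 of 11 (54.5%) were more than 50 bp apart, against a median of 23 bp and 19.1% over all shared regions. Read depth is unknown from these files, so its part in the unshared positions was not tested.

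**Figure D2:**
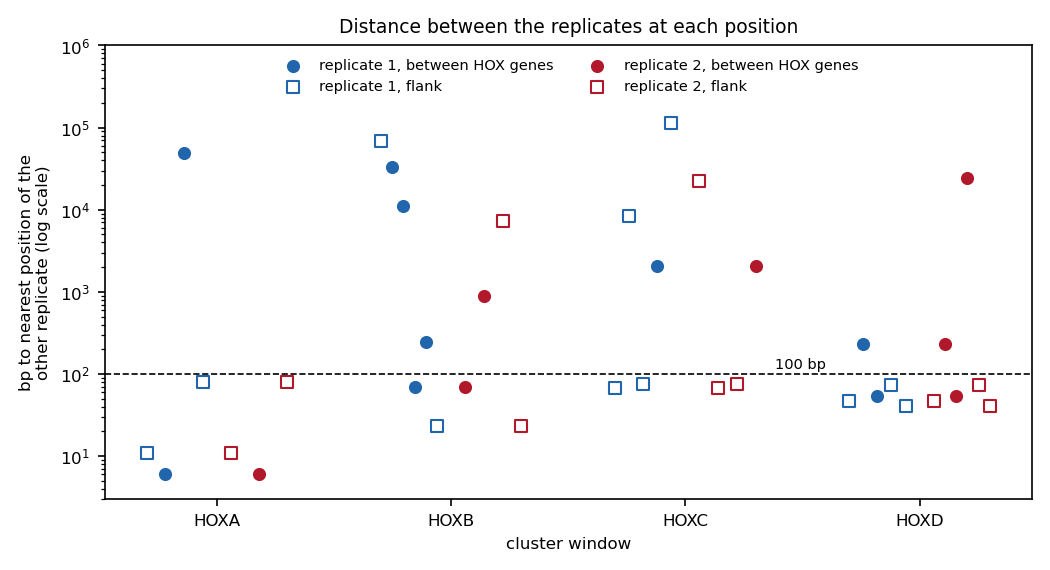
Distance in bp, on a log axis, from each position in the 4 HOX windows to the nearest position of the other replicate, with filled circles for positions between the outermost HOX genes, open squares for the flanks and a dashed line at 100 bp. The 11 shared regions lie between 6 and 79 bp, and unshared positions start at 229 bp.

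The genes were then compared by distance. Of 38 HOX genes, 6 had their TSS at most 10 kb from a shared region, 15.8% (95% Wilson interval 7.44 to 30.4), beside 8.69% of 20033 protein-coding genes and 7.57% of the 9169 that have another protein-coding TSS within 20 kb. The interval includes both background values, and since 3 of the 6 genes shared the HOXD11 region, the genes do not count as independent. The 6 were HOXA2, HOXB5, HOXC13, HOXD10, HOXD11 and HOXD12. With sharing limited to 50 bp the windows held 5 regions and the count was 1 of 38 genes, HOXA2, beside 7.07% of protein-coding genes, so the HOX share was then below the background instead of above it. Within 50 kb there were 27 of 38, against 27.2% of protein-coding genes, again with many genes sharing a region. Every HOX gene had between 1 and 3 shared regions within 100 kb, whereas 45.0% of protein-coding genes had any. The median distance from TSS to nearest shared region was 37.1 kb for HOX genes and 118 kb for protein-coding genes. Here too the genes of a cluster share regions, so the 38 genes do not count as independent.

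Taking each replicate alone, 13 of the 38 HOX genes lay within 10 kb of a replicate 1 position and 11 of a replicate 2 position, beside 15.9% and 11.9% of protein-coding genes. Neighbouring HOX genes share positions, so these counts are not of independent genes. Both replicates had a position within 10 kb of 8 genes. Of these HOXC12 and HOXD13 had no shared region at that distance. Replicate 1 alone had a position near HOXA3, HOXA6, HOXA7, HOXB4 and HOXC11, and replicate 2 alone near HOXD3, HOXD8 and HOXD9. For HOXA3, HOXA6 and HOXA7 it was the single position 27155103, and for HOXD3, HOXD8 and HOXD9 the single position 176129386. The remaining 22 genes had none.

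A shared region lay within 10 kb of 1 of 11 anterior genes, HOXA2 (9.09%, 95% Wilson interval 1.62 to 37.7), of 1 of 11 central genes, HOXB5 (9.09%, 1.62 to 37.7), and of 4 of 16 posterior genes (25.0%, 10.2 to 49.5). The intervals overlap, and 3 of the 4 posterior genes, HOXD10, HOXD11 and HOXD12, shared a single region, the other being HOXC13. The order depended on the start used and on the sharing limit. With any transcript start the counts were 3 of 11 anterior and 4 of 16 posterior genes, with canonical starts 2 of 11 and 3 of 16, and with sharing at 50 bp 1 of 11 and 0 of 16. Measured from the 5′ end of the gene, HOXD11 and HOXC13 were the nearest of the HOX genes, whereas from the canonical start HOXB3, at 0.733 kb, was nearest. The median distance was 44.4 kb for anterior, 44.1 kb for central and 26.9 kb for posterior genes, and the ranges overlapped widely, from 3.55 to 83.4, from 4.27 to 95.9 and from 1.01 to 64.5 kb. Within HOXD, 3 of 5 posterior genes had a region and 0 of 3 anterior genes, while in HOXA it was 0 of 4 posterior genes and 1 of 3 anterior genes. The posterior count therefore came from HOXC and HOXD, and its direction was the opposite in HOXA.

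**Figure D3:**
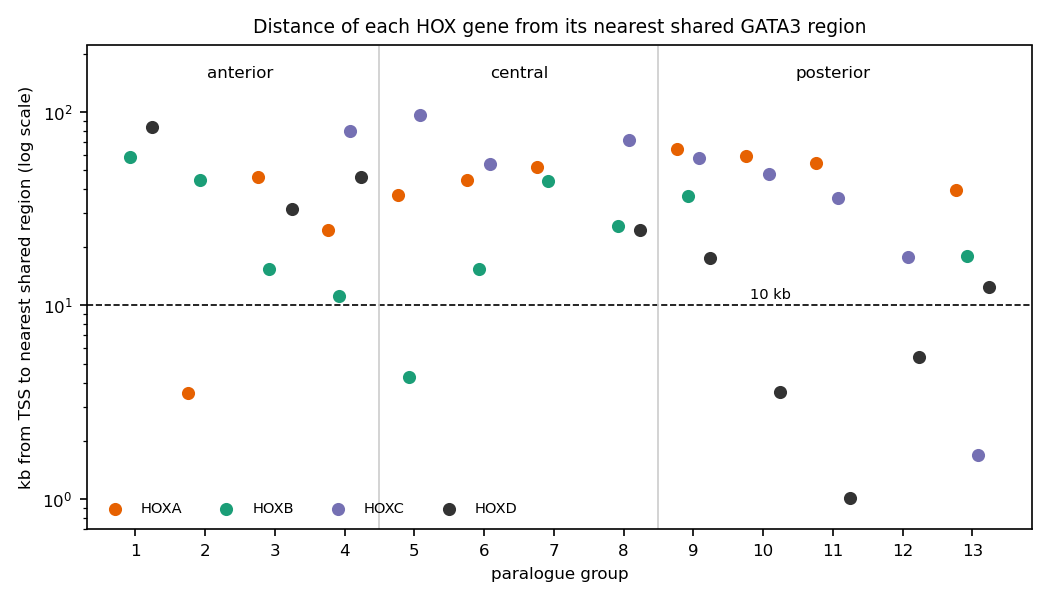
Distance in kb, on a log axis, from the TSS of each of the 38 HOX genes to its nearest shared GATA3 region, by paralogue group and coloured by cluster, with a dashed line at 10 kb. Of the 6 genes under the line, 4 are posterior, 3 of them in HOXD, and the ranges of the divisions overlap.

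Members of a paralogue group stood at unlike distances across clusters. Group 13 ran from 1.69 kb at HOXC13 through 12.5 kb at HOXD13 and 17.9 kb at HOXB13 to 39.6 kb at HOXA13. Group 11 ran from 1.01 kb at HOXD11 to 54.4 kb at HOXA11, with HOXC11 at 36.0 kb. In group 5 HOXB5 was at 4.27 kb, HOXA5 at 37.4 kb and HOXC5 at 95.9 kb. No group had more than 1 gene at 10 kb or less. The microRNA genes of the clusters, which target HOX messages, were measured in the same way. MIR10A lay 9.56 kb from a shared region, and MIR10B, MIR196A1, MIR196A2, MIR196B and MIR615 lay at 43.1 kb or more. MIR10A was 1.52 kb from the position that replicate 1 alone had at HOXB4.

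GATA words were counted in the HOX windows and over the 24 chromosomes. In the 200 bp around the centre, 9 of 11 regions had at least 1 word (81.8%, 95% Wilson interval 52.3 to 94.9), against 82.0% of all shared regions. Around the single positions, shared or not, the share in the windows was 50.0% in replicate 1 (29.9 to 70.1), against 77.3% of all its positions, and 64.7% in replicate 2 (41.3 to 82.7), against 77.5%. The interval of replicate 1 lies below its background value, while the interval of the shared regions is wide and includes theirs. There were 13 words in the 11 regions, 8 of them AGATAA. The words seen in the sequences above lay 4.5 bp from the centre at HOXC13, 19.5 bp at HOXD11 and 51.5 bp at HOXB5. At HOXA2 the word was 96.5 bp away, at the edge of the window. The nearest words in the MTX2 intron were 1.5 and 13 bp from the centre, and that far upstream of HOXC13 was 14.5 bp away. In all, 5 of 11 regions (45.5%) had a word within 50 bp of the centre, against 72.3% of all shared regions. The regions upstream of EVX1 and HOXB13 had a single word 61.0 and 82.0 bp away.

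The 2 regions with 0 words, at SKAP2 and LNPK, were also the 2 that lay within 1 kb of the 5′ end of a protein-coding gene. The HOXB5 region, 0.733 kb from the canonical start of HOXB3, had a word, as had the other 8. Over the 24 chromosomes 64.8% of 432 shared regions within 1 kb of such a 5′ end and 82.8% of the others had one. Among unshared positions in the HOX windows, 2 of 9 in replicate 1 (22.2%, 95% Wilson interval 6.32 to 54.7) and 3 of 6 in replicate 2 (50.0%, 18.8 to 81.2) had a word, against 72.9% and 67.0% of all unshared positions. The interval of replicate 1 lies below its background value and that of replicate 2 includes its own. Median GC content around these unshared positions was 50.5% and 54.2%, against 43.0% and 44.5% of all unshared positions, and its part was not tested. The unshared position 0.0780 kb from the HOXB4 TSS had 0 words, and that at HOXD8 had 1, 92.5 bp away. Both positions of the pair upstream of HOXD12 had 0.

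**Figure D4:**
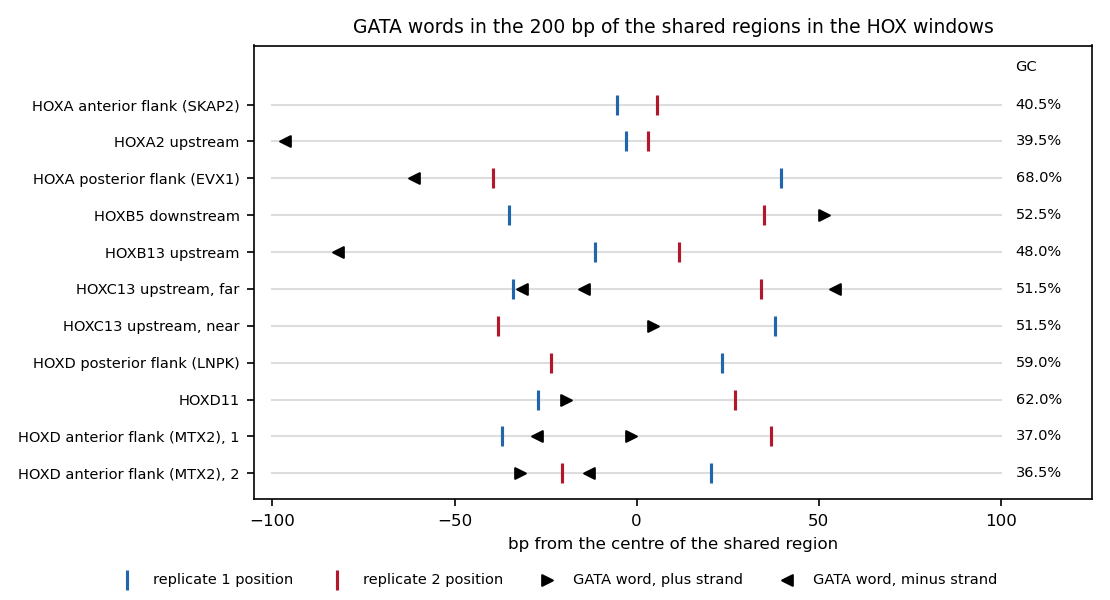
GATA words in the 200 bp around each of the 11 shared regions, with bp from the centre on the horizontal axis, coloured bars for the replicate positions, triangles for words pointing along their strand and GC content at the right. Words lie within 50 bp of the centre in 5 regions, farther out in 4, and the SKAP2 and LNPK regions have none.

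Other motifs were searched on both strands in the same windows, and none of their matches in the 11 regions overlapped a GATA word. The MEIS word TGACAG was in 2 of 11 regions, beside 10.7% of all shared regions, and the word TTTATG, bound by CDX and posterior HOX proteins, was in 2, beside 10.9%. Those 2 were the regions at HOXA2 and HOXB5. The SMAD word GTCTG was in 4, beside 36.1%, and the GC box GGGCGG in 3, beside 5.29%. The octamer ATGCAAAT, bound by POU factors, and the CTCF consensus were in 0 of 11, and each was in at most 5.10% of all shared regions. The median GC content was 51.5% in the HOX regions and 44% in all shared regions, and within the HOX set it ran from 36.5% in the MTX2 intron to 68.0% upstream of EVX1.

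The authors named HOX genes at positions in the HOXB, HOXC and HOXD windows but at none in the HOXA window. HOX genes were named at 8 positions of replicate 1 and 6 of replicate 2, none of them outside the windows, and 3 in each replicate were shared. Replicate 1 carried the names HOXB1, HOXB4, HOXB5, HOXC13, HOXD11 and HOXD12, and replicate 2 HOXB5, HOXC13, HOXD8, HOXD11 and HOXD12. The shared region upstream of HOXA2 carried the name of the RNA gene HOXA-AS2 instead. Names of HOX RNA genes stood at 3 positions of replicate 1 and 2 of replicate 2. Besides HOXA-AS2 they were HOXB-AS2 at 48556006 of replicate 1, and HOTAIR_2 at the position of each replicate between the outermost HOXC genes.

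HOX regulators and partners were set beside the HOX genes. Of 24 such genes, 5 lay at most 10 kb from a shared region (20.8%, beside the 8.69% above). They were CDX2, a caudal factor that activates HOX genes, at 0.112 kb, KMT2A, the histone methyltransferase that maintains HOX expression, at 0.159 kb, the HOX cofactor genes MEIS1 at 2.35 kb and PBX2 at 7.87 kb, and EVX1. The list was chosen with earlier results of these data known, and the paper reports GATA3 binding at CDX2 by ChIP-qPCR, so the share is descriptive only. EVX1 and EVX2 were listed because they adjoin HOX clusters. The EVX1 region is the one already counted in the posterior flank of HOXA, so this share is not separate from the HOX windows. The other 19 genes were between 15.2 and 665 kb from their nearest shared region.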

How the data were processed

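GATA3 ChIP-seq was performed by the authors on BMP4-treated H1 hESCs in 2 replicates, each with its own input. According to the methods, these were biological replicates, and single-end reads were adapter-trimmed with cutadapt, aligned to hg38 with bowtie, cleared of duplicates with Picard and of multiply mapped and blacklisted reads, and peaks were called per replicate with MACS2 at q 0.05. The deposited lists hold a base position and a gene name for each peak on the 24 chromosomes but no width, score or q-value; how a peak became 1 position, and whether bases are counted from 0 or 1, is not given in the sources used here. Positions are printed as deposited. The lists held 18545 lines for replicate 1 and 12870 for replicate 2. These numbers differ from the peak counts reported in the methods, and the reason is not given in the sources used here. Depth per sample is unknown.

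Lines with the same position were counted once, and scaffolds outside the 24 chromosomes were left out. TSSs, taken as the 5′ end of the gene, came from GENCODE release 44 and sequence from hg38. The centre of a shared region was the mean of its replicate positions. Motifs were counted in 200 bp windows. Analyses used Python 3.11.15, numpy 2.4.6, scipy 1.17.1, pandas 2.3.3, statsmodels 0.14.6 and matplotlib 3.10.9, and linking, distances and motif search were tested on simulated data. Intervals are 95% and cover counting error only. With 2 replicates of 1 condition no test between samples was possible. All 38 genes, all positions in the windows and regulators with a shared region within 10 kb are named. The genes and lists were chosen with earlier results of these data known. The other HOX gene served only to set the edge of a window and is not reported here.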

Additional observations from a re-analysis of the deposited data

How the results depend on the processing

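No paired analysis was possible because the input samples have no file analysed here and no test compares groups. Of 93 alternative values, 51 stayed within 1.5 times the count or within the interval and 42 moved. Canonical starts and windows set by the 38 genes described were chosen after seeing the data.

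With sharing at 50 bp, the windows held 5 regions, 1 of them between the outermost genes and 4 in the flanks, with 1 for HOXB, 0 for HOXC and 2 for HOXD, and 1 HOX gene (0 central, 0 posterior) had a region within 10 kb. With wider sharing limits the windows held 12 regions, the added one being the HOXD12 pair; with windows set by the 38 genes they held 10. Flanks of 50 kb gave 6 regions, flanks of 200 kb 13 and no flank 3. Using 1 replicate at a time, the windows held 17 to 20 positions, 4 to 6 for HOXB, 4 to 5 for HOXC and 7 to 9 between the outermost genes; 11 to 13 HOX genes had one within 10 kb, 2 to 3 anterior, 2 to 3 central and 7 posterior, as had 6 to 8 regulators, and names of HOX genes numbered 6 to 8 in place of 14. Within 50 kb the counts were 27 genes, 8 anterior, 7 central and 12 posterior, and 8 regulators. Any transcript start gave 3 anterior and 2 central genes and 8 regulators, beside 13.6% of protein-coding genes. Canonical starts gave 2 anterior genes, and groups 1 to 8 together 2. GATA words were in 45.5% of 100 bp windows, and in 50.0% to 64.7% of single-replicate positions. The cause of these shifts was not tested.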

Other observations

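Beyond the windows, shared regions were counted from 100 kb to 1 Mb outside the outermost HOX genes in steps of 100 kb, a choice made after seeing the data. These 7.2 Mb held 29 regions, 4.03 per Mb (95% exact Poisson interval 2.70 to 5.78), an interval that includes the 3.11 per Mb of sequenced bases on the 24 chromosomes. The anterior side of HOXD, beyond HOXD1, held 10 of the 29, spread over 7 of its 9 steps. The posterior side of HOXD held 2. HOXA had 1 on each side, HOXB 4 on each side, and HOXC 3 anterior and 4 posterior. These are counts of regions in 1 condition, and the difference between the sides was not tested.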
